A study of Mus musculus with 27 samples.

Results

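Smooth muscle (SM) cells sorted from a differentiating mouse embryonic stem cell culture were compared with and without induction of a dominant-negative FOS peptide (dnFOS). The members are the 5 arrays whose labels name SM cells, 2 with doxycycline (DOX) and 3 without, out of 27 arrays in 13 groups. Every group came from A2lox-derived embryonic stem cells that carry a DOX-inducible, Flag-tagged dnFOS cassette at the Hprt locus, so the untreated cells carry it too. DOX is the difference that the labels give between untreated and induced cells, and the effects of DOX itself and of dnFOS are not told apart by these groups. The cells were G418-selected clones kept on mouse embryonic feeders, and the labels do not say whether the 5 arrays come from 1 clone or from separate cultures. They were differentiated in vitro, FLK1+ cells were purified and placed in blast culture, and the SM population was sorted after 2 days of that culture. The DOX arrays (DOX 1 and DOX 2) had 1 µg/ml DOX for 2 days and are labelled as being without AP-1, and the untreated arrays (untreated 1, 2 and 3) had none. The labels do not give the SM gate. Other populations sorted from the same culture stage serve for comparison, each with and without DOX: hemogenic endothelium before (HE1) and after (HE2) the onset of CD41, and hematopoietic progenitors (HP).

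AP-1 is a dimer of FOS and JUN family (or related ATF) leucine zipper proteins that is activated by growth factor, stress and cytokine signals through MAP kinases. It binds the heptamer TGACTCA, whose reverse complement is TGAGTCA. dnFOS keeps the zipper that pairs with JUN and replaces the DNA-contacting region with an acidic stretch, so that JUN partners are held in dimers that cannot bind DNA. In vascular cells AP-1 is known for genes of cell migration, pericellular proteolysis and inflammation, while the contractile genes of smooth muscle are chiefly driven by SRF and its cofactor myocardin.

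Each level is a log2 signal relative to its array's 75th percentile, read from 1 probe for a gene. Tests covered the 23825 genes and transcripts that every untreated array, or else every DOX array, showed well above background. The arrays lie on slides: untreated 1 and DOX 1 share slide 1, untreated 2 and DOX 2 share slide 2, and untreated 3 lies on slide 3. Across the tested genes, array levels correlated more closely within a slide (r = 0.982 on slide 1 and 0.967 on slide 2) than within the untreated group (0.915 to 0.958) or between the DOX arrays (0.917), so differences within each slide are given beside the main results. The share of probes well above background was 55.8 to 89.6% without DOX, highest on untreated 2, and 60.2 and 65.5% with it. The number of arrays, 2 against 3, limits the precision, and the p-values take their spread from all 27 arrays within their groups, which may be technical. The SM arrays alone gave 0 calls, with an adjusted p of 0.961 for Hprt.

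The labelled cell type was checked against its markers in the untreated arrays. Compared with the mean of HE1, HE2 and HP, 11 of 13 smooth muscle markers were higher in SM cells (median log2 difference 2.78, against -0.13 over all 26395 genes in this comparison, 41.7% of which were higher), and 8 passed the test as higher, as did 6.21% of all genes. All 10 fibroblast markers and 9 of 10 mesothelial markers were higher as well (medians 3.91 and 3.59), whereas all 13 endothelial markers (median -2.72) and 13 of 14 myeloid markers (median -3.20) were lower. Of the smooth muscle markers, 1 passed the test as lower in SM cells, as did 2.45% of all genes. Erythroid (10 of 11, median 1.52), cardiac (7 of 7, 1.65) and pluripotency markers (4 of 5, 2.84) were higher too, and 4, 3 and 3 of them passed (background 6.21%).

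Across the 5 SM arrays, endothelial, erythroid and pluripotency markers stood apart on slide 2, as did fibroblast markers (means 0.98 and 1.03, against 2.18 to 2.55 elsewhere) and cardiac markers (1.89 and 1.40, against 0.29 to 0.75). The mean level of the 13 endothelial markers was 1.93 and 2.05 on the untreated and DOX arrays of slide 2, against -1.26 to -1.14 on the other arrays. The 11 erythroid markers had means of 0.55 and 0.14 on slide 2, against 1.91 to 2.90 elsewhere, and the DOX array had the lower mean on both slide 1 (1.91 against 2.83) and slide 2. The 6 pluripotency markers likewise had 0.58 and -0.01 on slide 1 and -2.39 and -2.93 on slide 2, untreated first, and 0.33 on untreated 3. With DOX 10 of 11 erythroid markers (median difference -1.0) and 5 of 5 tested pluripotency markers (-1.13) were lower, against 43.8% of all genes, and none was separated. Within slide 2, 7 of the erythroid and 3 of the pluripotency markers were lower. The erythroid median was -1.78 without untreated 2 and -0.25 without DOX 2, the pluripotency median was -2.58 without DOX 1 and 0.02 without DOX 2, and the part of these cells in the lower lists described below was not tested. The 14 myeloid markers include Lilrb4a, a called gene described below that was added to the set. Their means were -2.47, -1.37 and -1.61 on the untreated arrays and -3.50 and -2.97 on the DOX arrays. Of the 14, 10, 13 and 12 were well above background without DOX and 7 and 10 with it. Spi1, the master regulator of the myeloid lineage, was well above background on none of the 5 arrays, whereas Csf1r, Itgam, Fcer1g, Mpo, Laptm5 and Coro1a were on all 5. Mesothelial markers had means of 1.24, 0.42 and 1.39 without DOX and 0.24 and -0.75 with it. In a sorted bulk population, fewer cells of a type and less RNA per cell cannot be told apart.

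**Figure D1:**
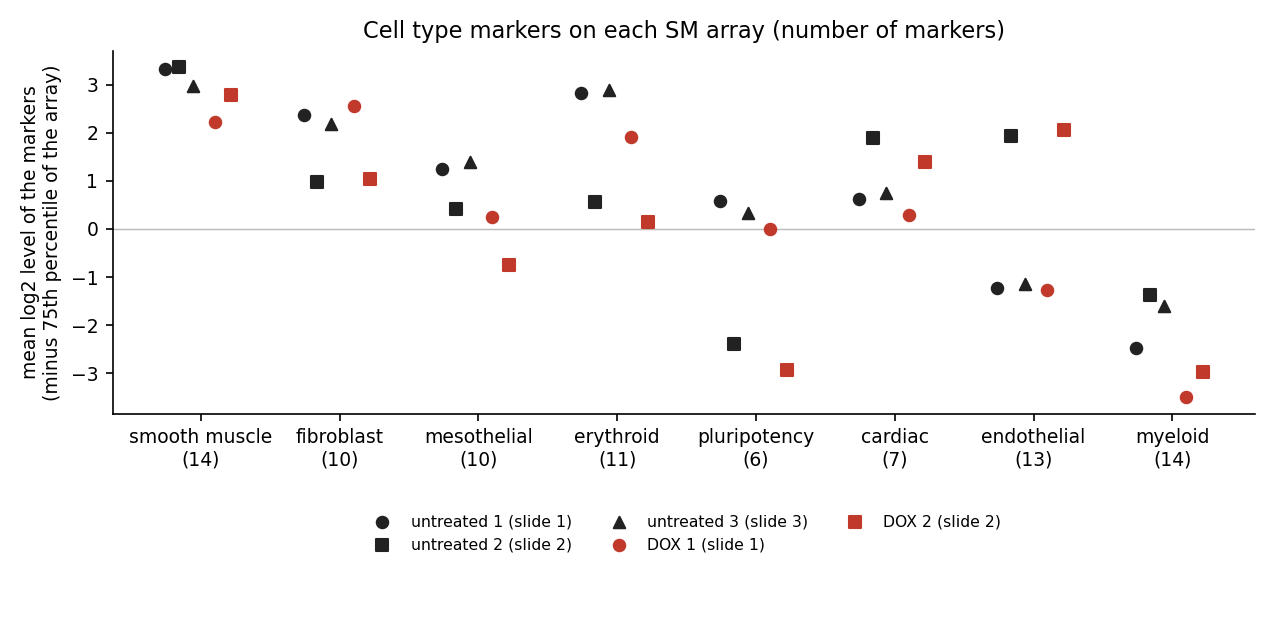
Mean log2 level (relative to each array's 75th percentile) of 8 sets of cell type markers on each of the 5 SM arrays, with the number of markers under each name; black symbols are untreated, red symbols are DOX, and the shape gives the slide. The endothelial means of slide 2 (1.93 and 2.05) stand above those of the other arrays, while the myeloid means of both DOX arrays (-3.50 and -2.97) lie below all 3 untreated means.

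Hprt, the purine salvage enzyme whose locus holds the cassette, checks the labels. Its level was 1.07, 0.84 and 1.11 on untreated arrays 1 to 3, and 3.84 and 5.17 on DOX arrays 1 and 2. Both DOX arrays lay above every untreated array. Hprt rose by 3.50 (log2, SE 0.51, n = 2 against 3), which is 11.3-fold, with an adjusted p of 0.0222 (limma, Benjamini-Hochberg). The differences within slides were 2.77 and 4.33. The same probe was higher by 3.22, 2.91 and 2.13 with DOX in HE1, HE2 and HP. The probe reads the locus of the cassette and not the dnFOS peptide itself.

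The transcripts of the AP-1 proteins gave no call. Of 12 family members on the array 10 were tested, 5 were lower and 5 were higher with DOX, and their median difference was -0.21, against 0.09 over all tested genes, and 0.35 without DOX 1, where all genes had 0.50. Fos, the immediate early partner of JUN, had levels of 4.52, 4.72 and 3.74 without DOX and 5.38 and 5.27 with it. The groups did not overlap, but the difference of 1.00 (SE 0.74) had an adjusted p of 0.996 with limma and was 0.55 with slide as a block. Fosl2, which encodes the slowly accumulating family member FRA2, had levels of 2.67, 2.51 and 2.20 against 1.22 and 1.79, a log2 difference of -0.95 (SE 0.40, adjusted p 0.996). Jun, the main partner captured by dnFOS, differed by 0.72 (0.19 to 1.25 over 24 settings). Junb differed by -0.77 (-1.71 to 0.18) and Jund by 0.11 (-0.39 with quantile normalisation). Fosl1 and Batf were not well above background on all arrays of either group.

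With the threshold of an adjusted p under 0.05 and at least 2-fold, 5 genes passed the test, which is 0.021% of 23825. Hprt was the 1 gene that rose (0.0042%), and 4 genes fell (0.0168%). Without adjustment, 663 genes had p under 0.05 (2.78%), of which 159 were at least 2-fold higher (0.667%) and 476 at least 2-fold lower (2%). Of the 635 genes at an unadjusted p under 0.05 and 2-fold, 476 were thus lower, but the lower share was 35.5% when arrays were scaled by their median, 49.1% with quantile normalisation and 57.1% in the authors' own values, so the balance of directions over all genes rests on the scaling. The median over all tested genes was 0.09 with the 75th percentile and 0.43 with the median scaling. Both DOX arrays were on 1 side of all untreated arrays, and at least 2-fold apart in mean, for 277 higher genes (1.16%) and 769 lower genes (3.23%), which are called separated from here on.

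Tnfrsf12a encodes the receptor (Fn14) of the cytokine TWEAK on vascular and mesenchymal cells. Its level was 3.92, 3.70 and 4.36 without DOX and 1.33 and 0.70 with DOX, so every DOX array lay more than 2 log2 units below every untreated one. Tnfrsf12a fell by 2.97 (SE 0.48, n = 2 against 3), 7.86-fold, with an adjusted p of 0.0371 (limma). The differences within slides were -2.59 and -3.00. With slide as a block the adjusted p was 0.0504, just outside the threshold, at a difference of -2.96. Tnfrsf12a was lower by 2.12, 1.74 and 2.49 on the log2 scale in HE1, HE2 and HP.

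Msln encodes mesothelin, a surface glycoprotein of mesothelial cells. It had levels of -2.24, -2.69 and -2.36 on the untreated arrays and -6.93 and -5.74 on the DOX arrays, where it was not well above background on either. Msln fell at least 5.45-fold, with a measured difference of -3.91 (SE 0.63, adjusted p 0.0371 with limma) and of -4.70 and -3.05 within slides. At-least folds set the bright group against the higher of the dim probe's own signal and the lowest signal among probes well above background. Of the 10 mesothelial markers, Msln included, 8 were lower with DOX (43.8% over all genes) and 1, Msln itself, was separated, with a list median of -1.12 (-2.09 without DOX 1). Within slides, 5 and 7 of the 10 were lower. The other 9 were well above background on at least 1 DOX array. The part of mesothelial cells in the fall of Msln was not tested.

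Lilrb4a, an inhibitory receptor of myeloid cells, had levels of -2.29, -1.56 and -1.74 without DOX and -6.70 and -6.29 with DOX, again not well above background on either DOX array. It fell at least 8.07-fold, with a measured difference of -4.63 (SE 0.54) and the lowest adjusted p of all genes, 0.00193 (limma). Its second probe differed by -1.74 and was too dim to be tested. Ifi202b, an interferon-inducible member of the HIN-200 family of DNA sensors, had levels of -1.33, -1.85 and -1.18 against -4.20 and -6.97, and was well above background on 1 of the 2 DOX arrays. It fell by 4.13 (SE 0.66) with an adjusted p of 0.0371 (limma), and its second probe differed by -3.34. The measured fold of 17.5 includes a DOX array not well above background and does not compare with the at-least fold of Lilrb4a. Both genes have close relatives in the genome, and whether these probes also read them was not tested. The 14 myeloid markers, Lilrb4a among them, ran lower on the DOX arrays (means given above), and their part in these results was not tested.

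The calls depended on single arrays to different degrees. Lilrb4a passed the test without any 1 of the 5 arrays (adjusted p 0.00637 to 0.0305 with limma, difference -4.84 to -4.42). Hprt passed without DOX 1 (adjusted p 0.0169) and not without untreated 1, 2 or 3 (0.123, 0.0686 and 0.0791) or DOX 2 (0.208, difference 2.83). Ifi202b passed without DOX 1 (0.00231, difference -5.51) and not without untreated 1, 2 or 3 (0.141, 0.0686 and 0.15) or DOX 2 (0.351, difference -2.75). Msln (adjusted p 0.0686 to 0.214, difference -4.50 to -3.31) and Tnfrsf12a (0.0686 to 0.309, difference -3.29 to -2.66) did not pass without any 1 of the arrays. With normexp and quantile normalisation together, and in the authors' values, the dim genes had smaller differences and none passed, namely -1.13 and -1.83 for Lilrb4a, -1.15 and -1.72 for Ifi202b, and -0.76 and -1.28 for Msln. Tnfrsf12a passed in both, at -2.98 and -3.07. Of 24 alternatives, Tnfrsf12a missed the threshold in 14 and Hprt in 8. Of the 23 that tested them, Ifi202b missed it in 15, Msln in 16 and Lilrb4a in 5, and the filter on both groups left these 3 genes out.

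At an adjusted p under 0.1, Efcab6, Tyrobp and Glipr1 joined the 5 called genes. Tyrobp, the DAP12 signalling adaptor of myeloid receptors, had levels of -1.20, -1.03 and -1.15 without DOX and -4.79 and -3.93 with DOX, with 1 of 2 DOX arrays well above background, a difference of -3.24 (SE 0.57, adjusted p 0.07 with limma). Glipr1, a secreted protein of the CAP family, was at 2.78, 2.77 and 2.85 against -0.30 and -0.55 (-3.22, SE 0.57, adjusted p 0.07). Efcab6, which encodes an EF-hand protein, was above background only with DOX, at -2.37 and -3.22, at least 3.35-fold over the untreated arrays (adjusted p 0.0571). Timd2, a receptor for H-ferritin, had levels of -6.52, -3.64 and -5.84 against -2.34 and -1.06 with DOX, and 1 of the 3 untreated arrays was well above background. Its difference of 3.63 (SE 0.68) had an adjusted p of 0.106, or 0.0489 with slide as a block.

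**Figure D2:**
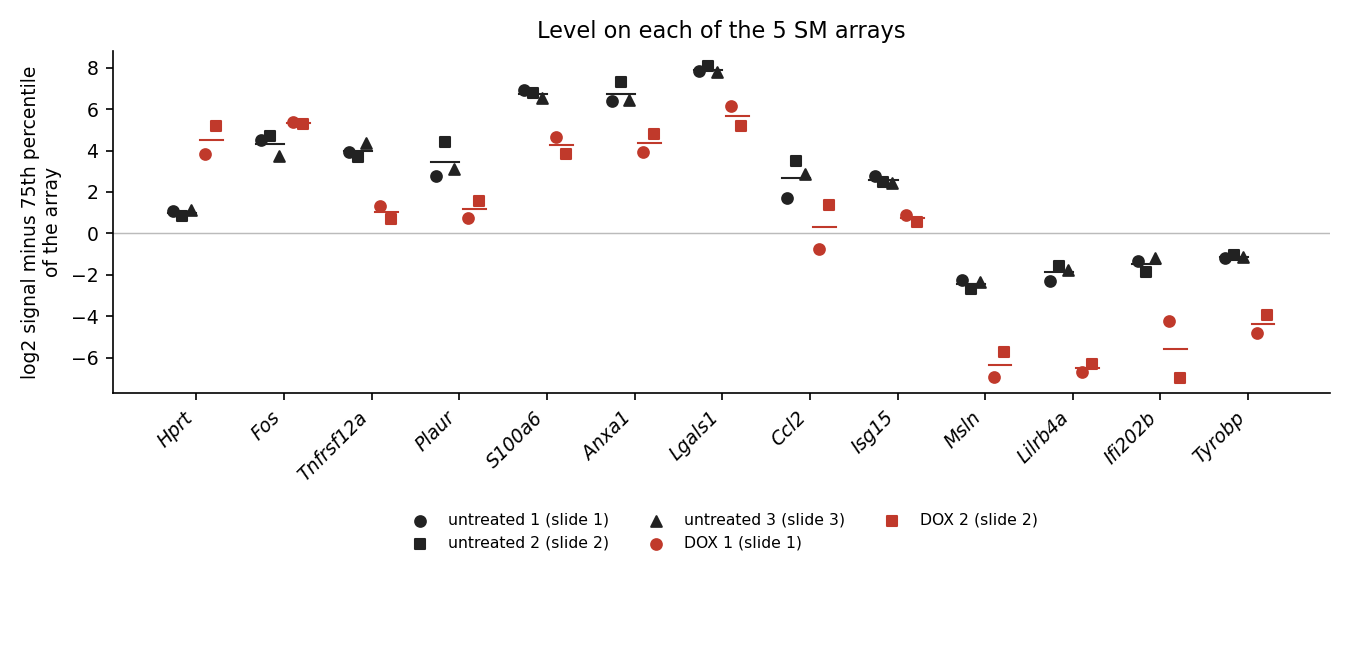
Log2 level (relative to each array's 75th percentile) of 13 genes on each SM array; black symbols are untreated, red symbols DOX, shapes give the slide, and short lines are group means. Hprt and Fos lie higher on both DOX arrays, and the other 11 genes lie lower on both DOX arrays than on every untreated array.

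Plasminogen activation at the cell surface is a classic output of AP-1 in migrating vascular cells. The list of this system together with Tnfrsf12a and Tnfsf12 (TWEAK) had 10 tested members. All 10 were lower with DOX, and 4 of them separated (background 3.23%), Tnfrsf12a included. The 1 past the test was Tnfrsf12a, the called gene described above, so this call repeats that result. The list median was -1.16 against 0.09 over all tested genes, of which 43.8% were below 0 and 56.2% above. Plaur, the receptor of urokinase, had levels of 2.77, 4.43 and 3.13 without DOX and 0.77 and 1.55 with it, a 4.88-fold difference (log2 -2.29, SE 0.54). Its adjusted p was 0.436 in the main limma fit and 0.0329 with slide as a block, and the differences within slides were -2.01 and -2.88. Plau, urokinase itself, was at -2.09, -1.93 and -1.98 against -3.03 and -4.37, and both genes had the DOX arrays below every untreated array. Plat, the tissue activator, was at 2.10, 0.47 and 2.85 against 2.13 and -2.87, with only DOX 2 below all untreated arrays (difference -2.17).

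Of 17 tested textbook AP-1 target genes, 14 were lower (43.8% over all genes), 7 of them separated (background 3.23%), and 1 (Gja1, connexin 43, at 1.07) was separated and higher, with a median of -0.69 (-0.31 without DOX 1). The list shares members with the previous one. Cd44, the hyaluronan receptor, varied little within groups, with 2.94, 2.82 and 2.92 against 1.82 and 1.87 (log2 difference -1.05, SE 0.35, adjusted p 0.996 with limma). Spp1, which encodes osteopontin, differed by -1.85, Mmp9, a gelatinase above background on 1 of 2 DOX arrays, by -1.49 and Ptgs2, the inducible cyclooxygenase, by -1.04.

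Small calcium-binding and membrane-binding proteins of the S100, annexin and galectin families were mostly lower with DOX. Of 14 tested members, 12 were lower (43.8% over all genes) and 9 of them separated (background 3.23%). The list median was -1.46, with -1.16 and -1.53 within slides 1 and 2. Over 21 settings the list median ran from -1.61 to -1.12. S100a6 (calcyclin) was at 6.91, 6.77 and 6.55 without DOX and at 4.66 and 3.83 with DOX. Its difference of -2.50 (SE 0.63) had an adjusted p of 0.52 with limma, or 0.0504 with slide as a block, and was -2.59, -2.58 and -2.56 in HE1, HE2 and HP. Lgals1, galectin-1, a sugar-binding protein, was at 7.84, 8.06 and 7.77 against 6.16 and 5.20 (log2 difference -2.20, SE 0.55). Anxa1, an annexin known for restraining inflammation, was at 6.39, 7.31 and 6.42 against 3.92 and 4.80 (-2.34, SE 0.60). S100a11 was at 5.22, 5.49 and 6.03 against 4.10 and 3.90 (-1.58, SE 0.38, adjusted p 0.443). In each of these 4 genes both DOX arrays lay below all untreated arrays, and none passed the adjusted test in the main fit.

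The AP-1 letters TGACTCA or TGAGTCA were looked up in RefSeq promoters (GRCm38.p6), of which 5.20% of 32851 windows, each 250 bases before to 50 bases after the start, hold them. Among tested genes with a promoter entry the share was 4.71% (540 of 11476), among separated lower genes it was 35 of 349 genes and among separated higher genes 6 of 150. Of the 155 genes named by rule, 48 had no entry, and 7 of the others held the letters in the 250 bases before a start. The cyclic AMP element TGACGTCA, a related site that ATF proteins prefer, was in 1.15% of separated lower genes and 3.35% of tested genes. The TEAD letters GGAATG or CATTCC were in 19.5% of separated lower genes and 15.0% of tested genes. AP-1 and TEAD letters overlapped in 21 of the 289 promoters that hold both, and AP-1 and cyclic AMP letters in 0 of 12. For the called genes Tnfrsf12a, Ifi202b and Hprt the window did not hold the AP-1 letters, and Lilrb4a and Msln had no entry. Below are the 250 bases before the start, on the strand of the gene, for the lower genes Plaur, S100a11, Rsad2, Aoc1 and Cav2, shown because they join separated levels with AP-1 letters, which are in capitals. They lie at chr7:24462233-24462482 (plus strand), chr3:93520246-93520495 (plus strand), chr12:26456453-26456702 (minus strand), chr6:48904736-48904985 (plus strand) and chr6:17280935-17281184 (plus strand).
Plaur: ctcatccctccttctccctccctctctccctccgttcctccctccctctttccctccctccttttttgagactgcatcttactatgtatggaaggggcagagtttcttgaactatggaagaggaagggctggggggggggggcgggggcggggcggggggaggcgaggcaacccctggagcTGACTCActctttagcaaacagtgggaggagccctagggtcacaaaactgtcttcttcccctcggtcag
S100a11: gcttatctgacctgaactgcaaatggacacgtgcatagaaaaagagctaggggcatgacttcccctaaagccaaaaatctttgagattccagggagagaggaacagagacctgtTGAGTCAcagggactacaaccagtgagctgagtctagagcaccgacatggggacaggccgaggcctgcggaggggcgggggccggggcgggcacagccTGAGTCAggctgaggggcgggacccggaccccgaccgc
Rsad2: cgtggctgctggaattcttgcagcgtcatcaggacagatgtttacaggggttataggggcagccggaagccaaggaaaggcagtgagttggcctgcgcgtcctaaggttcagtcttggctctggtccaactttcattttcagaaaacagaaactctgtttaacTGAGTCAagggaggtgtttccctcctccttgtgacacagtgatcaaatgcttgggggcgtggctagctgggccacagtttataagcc
Aoc1: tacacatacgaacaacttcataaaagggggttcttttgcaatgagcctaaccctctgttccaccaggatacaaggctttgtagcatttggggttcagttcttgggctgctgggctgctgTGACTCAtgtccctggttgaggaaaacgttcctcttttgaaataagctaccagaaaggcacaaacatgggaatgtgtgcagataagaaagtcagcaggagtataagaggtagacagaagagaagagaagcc
Cav2: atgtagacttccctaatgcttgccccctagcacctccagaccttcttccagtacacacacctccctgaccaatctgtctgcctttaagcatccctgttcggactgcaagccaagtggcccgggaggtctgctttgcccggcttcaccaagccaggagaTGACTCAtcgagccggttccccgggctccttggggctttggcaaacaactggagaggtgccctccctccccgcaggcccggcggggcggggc
The first capital letter lies 69 bases before the start in Plaur, 87 in Rsad2, 92 in Cav2, 131 in Aoc1, and 136 and 38 in S100a11, which holds the letters at both places. Aoc1 has another start without the letters. A match of letters is a description and not a binding site, and the share in separated genes carries no test.

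Interferon-responsive genes were lower in 16 of 18 tested members (43.8% over all genes), 9 of them separated (background 3.23%). At an unadjusted p under 0.05 and 2-fold, 11 were lower (background 2%), and 1, Ifi202b, passed the test (background 0.0168%). The list median was -1.59, with -1.09 within slide 1 and -1.66 within slide 2, and ran from -2.0 to -0.71 over the same settings. Isg15, a ubiquitin-like protein induced by type I interferon, was at 2.76, 2.51 and 2.46 without DOX and at 0.89 and 0.56 with it. Its difference was -1.85 (SE 0.62, adjusted p 0.996 with limma). Gbp7, a guanylate-binding GTPase, was at -2.09, -0.84 and -1.84 against -4.14 and -6.75, with 1 of 2 DOX arrays well above background (-3.86, SE 0.83, adjusted p 0.273). Ifit1, which binds viral RNA, was at -1.98, -3.05 and -2.66 against -3.98 and -6.86, again with 1 of 2 (-2.86, SE 0.67). Rsad2, the antiviral enzyme viperin whose promoter is printed above, was at least 3.71-fold lower (adjusted p 0.584), since neither DOX array was well above background. MHC class I and antigen-processing genes, also inducible by interferon, were lower in 11 of 12 (43.8% over all genes) with a median of -0.65, which was -1.16 without DOX 1 and 0.14 without DOX 2, but none was separated and lower, and H2-Q1 was separated and higher (2.05, with 1 of 3 untreated arrays well above background).

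Chemokines and cytokines were lower in 10 of 11 tested members (43.8% over all genes), 3 of them separated (background 3.23%), with a median of -1.01. Within slide 1, 10 were lower (median -1.80), and within slide 2, 7 (median -0.71). Ccl7, a monocyte attractant, was at 0.08, 0.24 and 0.79 without DOX and at -2.94 and -2.35 with DOX, a difference of -3.02 (SE 0.75, adjusted p 0.513 with limma). Its neighbour Ccl2 was at 1.72, 3.49 and 2.88 against -0.77 and 1.37. The Ccl2 difference of -2.40 (SE 0.73) had an adjusted p of 0.995 in the main fit and 0.0489 with slide as a block. Ccl9 was at -1.77, -2.38 and -1.27 against -6.10 and -4.31, with 1 of 2 DOX arrays well above background. The median of this list was -0.02 without DOX 1 and -1.92 at the other end of the settings. Of the 10 tested myeloid markers, 9 were lower (43.8% over all genes) and 6 separated (background 3.23%), with a median of -1.23. Lilrb4a, a called gene added to the myeloid marker set, is among the 6. The part of myeloid cells in the chemokine and interferon values was not tested.

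**Figure D3:**
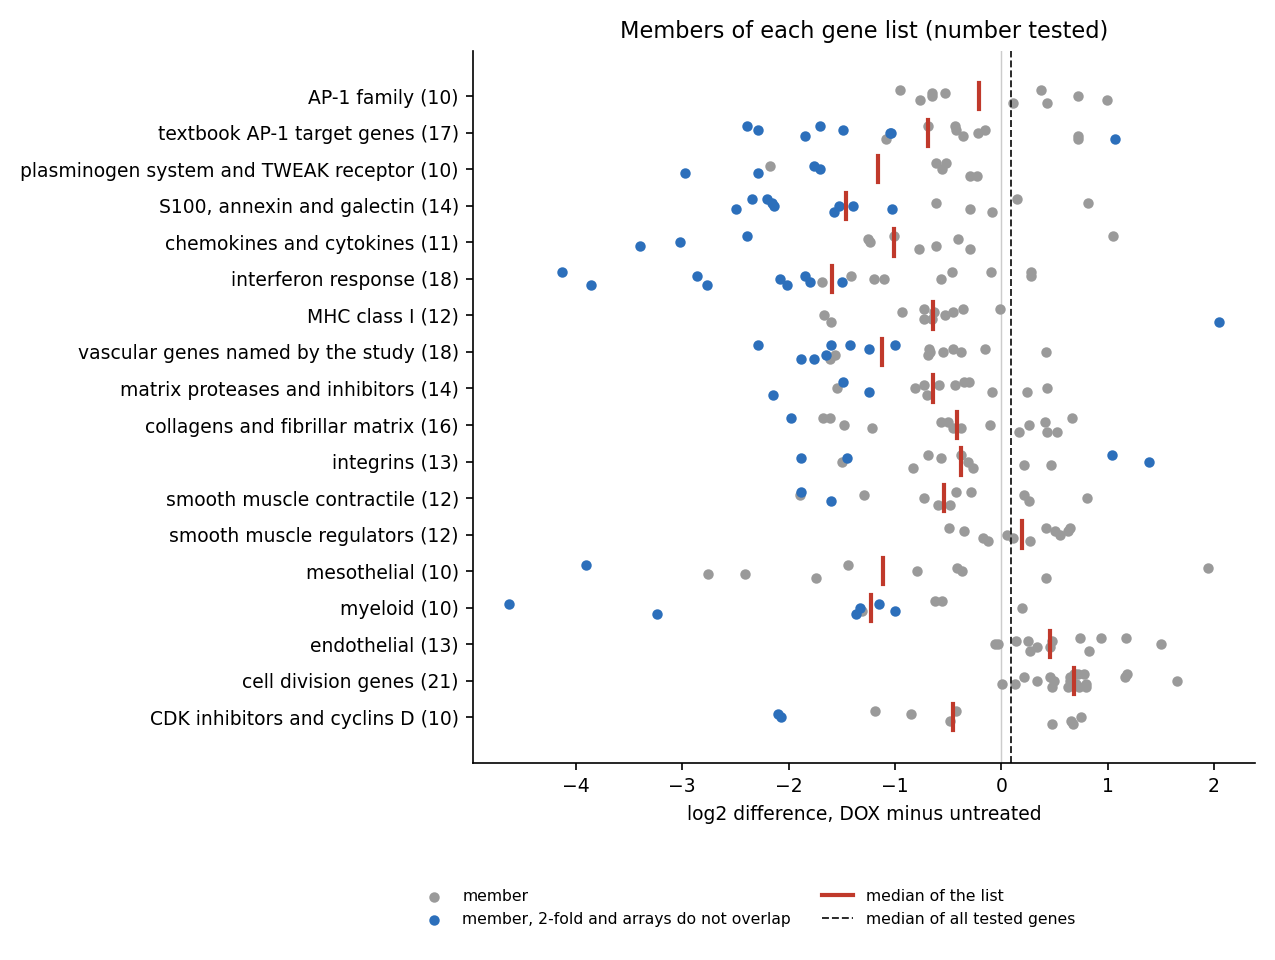
Log2 difference (DOX minus untreated) of each tested member of 18 gene lists, with the number tested after each name; blue points are members that are at least 2-fold apart with no overlap between arrays, red bars are list medians, and the dashed line is the median of all tested genes (0.09). The S100 list (median -1.46) and the interferon list (-1.59) lie mostly to the left, and the cell division list (0.69) lies wholly to the right of 0.

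A list of vascular genes was drawn from the study's account of AP-1, with Nrp1 taken from an example of AP-1 binding. Tgfb2 (-1.60, separated) stands for a TGF-beta ligand that the study does not number. Tgfb1 (-1.09) and Tgfb3 (-0.80) fell less and were not separated. Of the list, 18 genes were tested. With DOX 17 were lower (43.8% over all genes), 8 of them separated (background 3.23%), with a median of -1.12 (-1.09 and -1.19 within slides, -1.30 to -0.78 over the same settings). The 1 higher member was Wt1 (0.42), which the study names among genes that fell in SM and HE1 cells with dnFOS. The study chose most of these genes with arrays of this series at hand, so the list is not independent evidence of direction. Axl, a receptor tyrosine kinase, was at 2.81, 3.06 and 2.99 without DOX and at 1.58 and -0.24 with it, a difference of -2.28 (SE 0.66, adjusted p 0.771 with limma). Tgfb2, a growth factor of the TGF-beta family that promotes smooth muscle fate, was at 4.89, 5.34 and 5.54 against 3.75 and 3.56 (-1.60, SE 0.55), while in HE1 its difference was 0.06. Cav2, a caveolin outside that list, was at -3.15, -2.04 and -2.66 against -6.07 and -3.88, with 1 of 2 DOX arrays well above background (-2.36, SE 0.57, adjusted p 0.474). Pdgfc, a ligand for mesenchymal cells, differed by -1.65.

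The contractile genes that define smooth muscle gave no call. Of 14 on the array, Mylk and Lmod1 were too dim to be tested. Of 12 tested, 9 were lower (43.8% over all genes) and 2 separated (background 3.23%). Within slide 1, 11 were lower (median -0.89), and within slide 2, 10 (-0.56), against 13181 and 10955 of 23825 over all genes. The mean level of all 14 was 3.33, 3.36 and 2.98 without DOX and 2.23 and 2.79 with it. Both DOX means lay below all untreated means. The list median of -0.54 ran from -0.90 to 0.07, the latter without DOX 1, where the median over all tested genes was 0.50. Acta2, smooth muscle actin, was at 9.79, 9.84 and 9.10 without DOX and at 8.94 and 9.64 with DOX, so the groups overlapped (difference -0.29, SE 0.60). With median scaling the Acta2 difference was 0.056, where the median over all tested genes was 0.43. Tagln (SM22) was at 9.26, 9.97 and 8.48 against 7.87 and 9.41 and also overlapped. Cnn1, calponin, was at 4.44, 5.27 and 4.77 against 2.15 and 4.30, and its difference of -1.60 had an SE of 1.08. Des, the muscle intermediate filament desmin, was at -1.85, -1.34 and -1.07 against -2.21 and -4.40. The 12 tested regulators of smooth muscle, among them Myocd (-0.13, or 0.21 with median scaling), Gata6 (0.55) and Srf (0.65), had a median of 0.19 and none was separated.

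No gene of the extracellular matrix lists passed the test. Over all genes, 43.8% were lower, 3.23% separated and lower, and 56.2% higher. Of 15 basement membrane genes, 9 were higher, close to that share, with a median of 0.16 (0.75 without DOX 1 and -0.28 without DOX 2), and Col18a1 (1.32) was separated and higher while Col4a1 (-1.0) was separated and lower. Of 14 matrix proteases and inhibitors, 12 were lower and 3 separated, with a median of -0.64. Adamts5, an aggrecanase, was at -2.10, -1.82 and -1.54 without DOX and at -3.74 and -4.18 with it (-2.14, SE 0.79, adjusted p 0.996 with limma). Of 16 collagen and fibrillar matrix genes, 10 were lower and 1 was separated, with a median of -0.41, which was -0.67 without untreated 1 and -0.03 without untreated 2. Tnc, the tenascin of remodelling tissue, was at -0.31, 0.55 and -1.12 against -2.68 and -1.86. Integrins had a median of -0.37, but of 0.07 within slide 1, -0.06 within slide 2 and 0.16 without DOX 2, with Itga7 (-1.45) and Itga11 separated and lower and Itga1 (1.04) and Itga8 (1.39) separated and higher. Itga11, a collagen receptor, was at -0.26, -1.37 and 0.06 against -2.11 and -2.70.

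All 21 tested cell division genes had a positive difference (56.2% over all genes), though 3 were lower within slide 1, with a list median of 0.69, but none was separated and none passed the test. The medians were 0.16 within slide 1 and 0.64 within slide 2, and over the same settings the list median ran from 0.09 without DOX 2 to 1.23 without DOX 1. Mki67, a marker of cycling cells, was at 4.91, 5.14 and 4.69 without DOX and at 5.31 and 6.08 with it (0.78, SE 0.44). Cdkn2a, the p16 and p19ARF locus that restrains the cycle, was at 2.61, 3.60 and 3.01 against 0.49 and 1.47, a difference of -2.10 (SE 0.54, adjusted p 0.575 with limma). Its neighbour Cdkn2b was at 2.49, 2.41 and 0.29 against -0.52 and -0.17 (-2.07, SE 1.09). The other tested CDK inhibitors and D cyclins were not separated, and that list had a median of -0.45 (0.16 without DOX 1).

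Growth factor ligands were lower in 12 of 20 (43.8% over all genes), 4 of them separated (background 3.23%), with a median of -0.46, which was 0.08 without DOX 1 and -0.84 without DOX 2. Leaving out these arrays put the median over all tested genes at 0.50 and -0.16. Inhba, the activin A subunit, was at 1.76, 0.36 and 1.33 without DOX and at -0.56 and -3.33 with DOX (-3.09, SE 1.06, adjusted p 0.996 with limma). Genes of feedback on MAP kinase were lower in 7 of 12 (43.8% over all genes), with a median of -0.06, and 2 were separated and higher (background 1.16%). Egr1, an immediate early factor driven by SRF and MAP kinase, was separated and higher, with 4.26, 4.04 and 4.30 without DOX and 5.46 and 5.36 with DOX, a difference of 1.21 (SE 0.43, adjusted p 0.996). Its relative Egr2 was separated and higher as well, at -0.61, -1.70 and -1.29 against 0.91 and -0.04. Targets of YAP and TEAD were lower in 16 of 21 (43.8% over all genes). Of these targets, 5 were separated and lower (background 3.23%) and 1 separated and higher (1.16%). The median of the targets was -0.39 (-0.03 without DOX 1 and -1.04 without DOX 2), and the TEAD and YAP factors themselves had a median of 0.10. Hoxb4, a homeobox gene of hematopoietic stem cells, was at 1.58, 1.87 and 1.12 against 2.70 and 2.99 (1.33, SE 0.50, adjusted p 0.996). The study names it with Bmi1 (1.27) and Gfi1 (0.19), which were not separated, and 1 of these 3 genes was lower within each slide.

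The largest separated differences came from dim probes. Vmn1r34, a vomeronasal receptor, was at -0.94, -3.44 and -1.19 without DOX and not above background with it, at least 8.12-fold lower (adjusted p 0.412 with limma). Trim16, a ubiquitin ligase of the tripartite motif family, was at least 3.88-fold lower (adjusted p 0.248). Aoc1, diamine oxidase, was at -2.12, -2.75 and -2.60 against -4.78 and -6.74, at least 5.22-fold lower (adjusted p 0.52). Olfr510, an olfactory receptor, was at -1.01 and -2.83 with DOX and at least 6.15-fold higher than without it (adjusted p 0.52). Minar1, a regulator of Notch2, was at -2.50 and -2.03 with DOX and at least 4.85-fold higher (adjusted p 0.513). Hk3, a hexokinase of blood cells, was at -4.84, -1.59 and -4.64 against -0.48 and 0.77, with 1 of 3 untreated arrays well above background (3.84, SE 1.24).

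Because each of the DOX arrays has an untreated partner on its own slide, the difference can be read in each pair. Over 23765 genes the differences of slide 1 and slide 2 had a Pearson r of 0.033, so across all genes the pairs had little in common. Hprt was higher in both pairs, and Lilrb4a, Ifi202b, Msln and Tnfrsf12a were lower in both. Of the 14 S100, annexin and galectin genes, 12 were lower on slide 1 and 11 on slide 2. Of the 18 interferon genes, 16 and 15 were lower, and of the 10 genes of the plasminogen list, Tnfrsf12a included, 8 and 9. Over all tested genes, 13181 and 10955 of 23825 were lower.

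**Figure D4:**
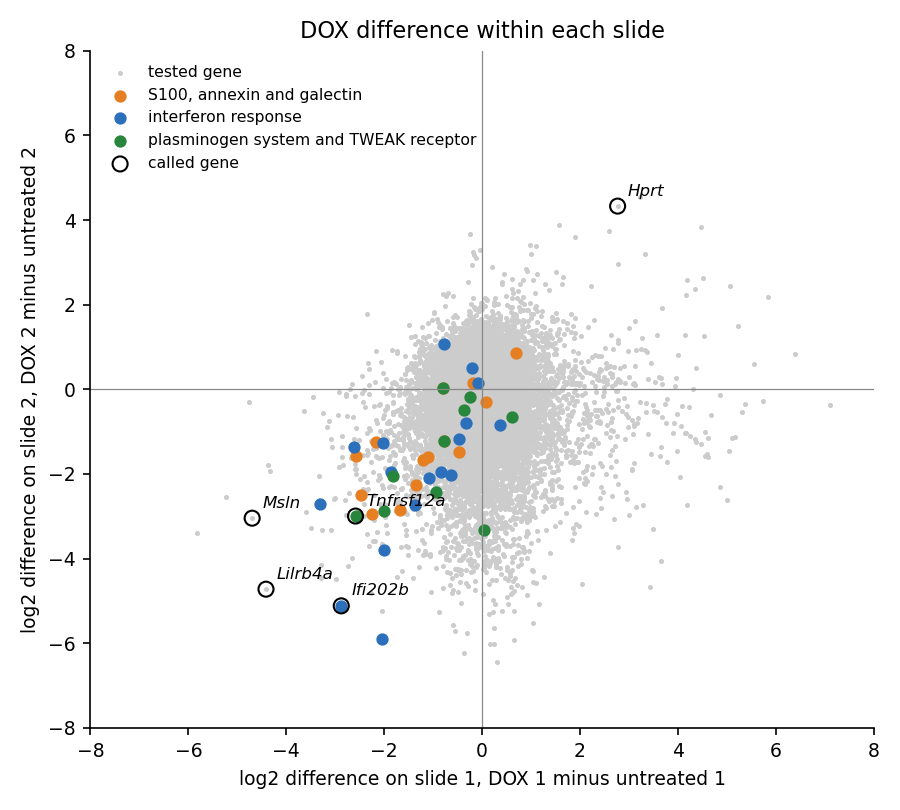
Log2 difference of DOX 1 minus untreated 1 (slide 1, horizontal) against DOX 2 minus untreated 2 (slide 2, vertical) for all tested genes in grey, 3 gene lists in colour and the 5 called genes circled. The grey cloud has r = 0.033, Hprt lies at 2.77 and 4.33, and the other circled genes lie in the lower left part of the plot.

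The same contrast in HE1, HE2 and HP (2 DOX and 2 untreated arrays each) addresses whether the DOX effect differed in SM cells. Tests of the difference between the DOX effect in SM cells and that in another population gave 0 calls against HE1, HE2 and HP with limma (0% of 25189, 25968 and 26495 genes). Against HP the count was 49 with normexp and quantile normalisation together, 8 in the authors' values and 5 with quantile normalisation alone, so it rests on the processing, and 0 calls do not show that the effects were alike. At an unadjusted p under 0.05 there were 125, 611 and 593 genes (0.496, 2.35 and 2.24%), fewer than the 1259, 1298 and 1325 that 5% would give, and the lowest adjusted p was 0.686, 1.0 and 0.288. Msln, which was not well above background on the SM DOX arrays, had measured differences of -3.91 in SM cells and 0.89 in HP, a contrast of -4.79 (SE 0.94, adjusted p 0.595). Against HE2 the 3 lowest unadjusted p values were those of Cav2 (difference of -4.43), Nrcam (-2.77) and F13a1. F13a1 was also among the 3 lowest against HE1. Nrcam, a cell adhesion molecule, was at -0.81, -0.82 and -0.98 against -2.43 and -1.97 in SM cells.

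The interferon list had medians of -1.06, -0.96 and -2.55 in HE1, HE2 and HP, next to -1.59 in SM cells. The S100 list had medians of -1.02, -0.41 and -1.13, and the plasminogen list -1.17, -0.93 and -1.59. The vascular list had medians of -0.61, -0.04 and -0.59, against -1.12 in SM cells. Over all tested genes the medians were 0.10, 0.23 and 0.24. Across genes, the DOX differences in SM cells correlated with those in HE1 (r = 0.567, 21840 genes), HE2 (0.421, 21949 genes) and HP (0.209, 22459 genes). Of the separated lower genes tested in both, 511 of 580 were below 0 in HE1, where 42.6% of all genes were. For HE2 the numbers were 366 of 520 and 41.2%, and for HP 271 of 583 and 32.3%. Untreated 2 and DOX 2 share slide 2, and untreated 3 shares slide 3, with HE and HP arrays, and the differences between the list medians were not tested.

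**Figure D5:**
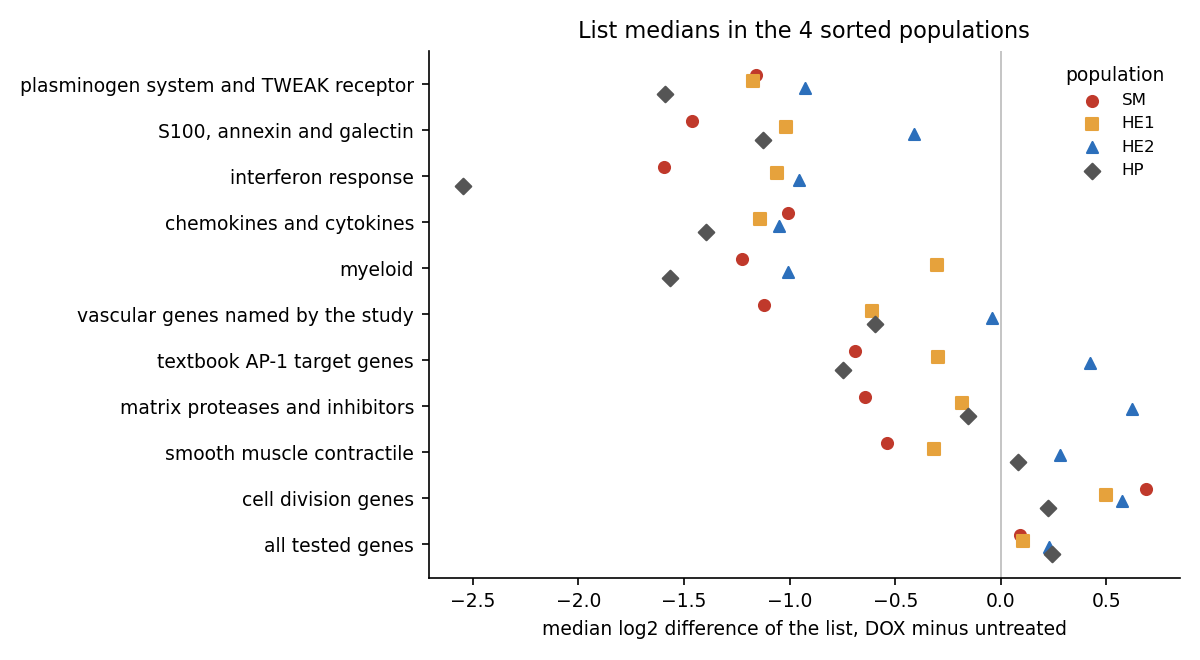
Median log2 difference (DOX minus untreated) of 10 gene lists and of all tested genes in SM, HE1, HE2 and HP cells, with 1 symbol per population. The medians of the plasminogen list, Tnfrsf12a included, lie between -1.59 and -0.93 in all 4 populations, while the vascular list runs from -1.12 in SM cells to -0.04 in HE2.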

How the data were processed

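RNA from each sorted population was labelled with Cy3 and hybridised to one-colour Agilent 8x60K mouse arrays (25 ng RNA per array), 27 arrays in all, of which the 5 SM arrays are reported. The deposited scanner files hold processed intensity values per spot, which the authors made with Feature Extraction (10.7.3.1 per the file headers, 10.7.1.1 per the labels). The authors also deposited a table of processed log2 values of the same arrays, used as an alternative, with scale and centring not given in the sources used here. Each of its 27 columns matched its own array best. No spot was saturated.

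Processed intensities were log2-transformed, the 75th percentile of each array was subtracted, and the probe with the highest mean over all arrays stood for its gene. limma 3.58.1 in R 4.3.3 was fitted to 13 group means over 27 arrays (28338 genes, 14 residual degrees of freedom), and the spread is thus shared by all groups. A gene was tested if every array of the SM or of the SM DOX group showed it well above background. Calls needed a Benjamini-Hochberg adjusted p under 0.05 and a 2-fold difference. Slide, scan day and replicate number were tried as blocks. Other alternatives were background correction by normexp (offset 50) together with quantile normalisation, scaling, the dim-probe filter, probe choice, variance model, arrays in the fit, leaving out each array, and thresholds. Fits also on genes above background in no group, and with slide as a block in the SM arrays alone, were added after seeing the data. Named genes were Hprt, the called genes, the 12 largest separated falls and rises at an unadjusted p under 0.05, up to 4 members of each list with the lowest p, genes the study names, and the lowest p values of each interaction. Acta2, Cnn1, Gja1, Glipr1, Isg15, Junb, Jund, Myocd, Plat, Ptgs2, Spp1 and Tagln fall outside that rule or were named after their values were seen. The members, lists and tests were chosen with earlier results of these data known. Scripts were tested on simulated data. RefSeq promoters and figures were processed in Python 3.11.15 (pandas 2.3.3, numpy 2.4.6, matplotlib 3.10.9). Lists share members. Some items are not reported here.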

Additional observations from a re-analysis of the deposited data

How the results depend on the processing

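With 2 against 3 arrays, and the 5 arrays sharing slides, few calls can be made and their number moves with the processing. The count of called genes was 5, and 16 with normexp and quantile normalisation, 11 with quantile normalisation, 2 with median scaling, 16 in the authors' values, 1 with no filter on dim probes, 1 with the filter in both groups, 2 with every probe on its own, 11 with slide as a fixed block, 21 with slide as a random block, 13 with scan day as a block, 3 with a mean-variance trend, 0 with array weights, 0 with the SM arrays alone, 8 at an adjusted p under 0.1, 2 with the spread fitted on all genes and 173 with slide as a block in the SM arrays alone, which leaves 1 residual degree of freedom. Leaving out 1 array gave 1 to 6 calls.

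With the replicate block 2 genes passed, Hprt and Lilrb4a. Numbers 1 and 2 are shared by both groups and coincide with slides, and deviations of same-numbered arrays correlated at 0.43 and 0.64. With only 2 shared numbers they are not taken to pair the samples.

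The 635 genes at an unadjusted p under 0.05 and 2-fold became 323 with normexp and quantile normalisation together, 1371 with no filter, 347 with the filter in both groups and 1803 with slide as a block in the SM arrays alone, and 708 to 2467 when 1 array was left out, the most without DOX 1. The 1046 separated genes became 321 with normexp and quantile normalisation together, 581 in the authors' values, 3093 with no filter and 685 with the filter in both groups, and 1566 to 9269 with 1 array left out. Calls of a different DOX effect in SM cells and HP were 49 with normexp and quantile normalisation together, 5 with quantile normalisation alone, 8 in the authors' values, 3 with slide as a random block and 1 with scan day, and in SM cells and HE2 1 with slide as either block. Leaving out 1 array gave 0 to 1 calls against HE1, 0 to 2 against HE2 and 0 to 1 against HP. In the check of the SM label, 8 smooth muscle markers passed and 6 to 8 did so with 1 array left out. The median difference over all tested genes was 0.50 without DOX 1 and -0.16 without DOX 2.

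Hprt stayed higher in every setting, at 3.84 (adjusted p 0.087) with median scaling, 3.50 with no filter (0.0528) and with the SM arrays alone (0.961), 3.44 with array weights (0.169), and 2.83 to 4.16 with 1 array left out. Lilrb4a did not pass with normexp and quantile normalisation (-1.13, adjusted p 0.378), in the authors' values (-1.83, 0.119), with the mean of its probes (-3.19, 0.143), with array weights (0.067) or with the SM arrays alone (0.795). Signs of small differences turned for Jund with normexp and quantile normalisation (-0.40), quantile normalisation alone (-0.39), the authors' values (-0.34), and without untreated 1 (-0.35) or DOX 2 (-0.70). Acta2 (0.056) and Myocd (0.21) turned with median scaling, which put the median over all tested genes at 0.43, above both. With 1 array left out, Acta2 ran from -0.64 without DOX 2 to 0.065 without DOX 1, Tagln from -1.36 to 0.17 in the same settings, and Myocd was at 0.10 without DOX 1 and 0.05 without untreated 2. Junb was at 0.10 with the replicate block, without untreated 3 and with slide as a block in the SM arrays alone, and at 0.18 without DOX 2, against -1.71 without DOX 1. Jund was at 0.93 and Plat at -4.67 without DOX 1. Plat (0.32) and Srf (-0.22) turned without DOX 2, and Srf was at 1.52 without DOX 1. The cause of these changes was not tested.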
